A study of Homo sapiens with 9 samples.

Results

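The genes described here are 60 genes of human chromosome 7, 29 on its short arm (7p) and 31 on its long arm (7q), out of 16750 genes measured. They were chosen by symbol, from earlier results of the same libraries in which the arms had moved in opposite directions, so their direction is a description and not a finding. The expression of all genes was measured by RNA sequencing in PANC-1, an aneuploid cell line from a human carcinoma of the pancreatic duct. Cells were transduced with a lentivirus carrying SLC22A10 (SLC22A10_OE), SLC22A15 (SLC22A15_OE) or no insert (Vector), and each group had 3 libraries, 9 in all. Both inserts belong to the solute carrier family 22 of organic ion transporters. All 3 groups went through selection in puromycin and were kept in it, and all were used at an early passage after cloning. The labels call each group clones, without giving the number of founder cells, and no parental PANC-1 library was used here. A difference between a transduced line and the vector line can therefore not be told apart from a difference between clones. The titles of the libraries end in A1, A2 and B1 in every group, and the labels do not say what the letters mark. A1 and A2 may share a culture, so the 3 libraries of a group may stand for 2 independent cultures, and p-values measure the spread between libraries, which may be technical. DNA was not measured.

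When a cell gains or loses a chromosome arm, the RNA of most genes on it tends to follow the number of copies. Promoters, feedback and RNA decay also set each level, so single genes can depart from their arm. Chromosome 7 carries genes of many unrelated functions: the receptor tyrosine kinase MET and the kinase BRAF, the caveolins that coat small pits of the plasma membrane, cytoskeletal actin, the histone methyltransferase EZH2, and single subunits of the proteasome, the CCT chaperonin and several other complexes whose other subunits are encoded elsewhere. Genes of an arm thus share a position and not a pathway, and the partners of a complex on other chromosomes show how the same machinery behaved off the arm.

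The libraries held 28.4 to 42.9 M reads in genes. All 60 members passed the filter on low values, at least 1 CPM in at least 3 libraries, which left 14554 genes. CPM, as deposited, are reads per 1000000 of a library size that was not the plain sum of reads in genes. Mean levels of the members ran from 17.1 CPM for BLVRA to 6616 CPM for ACTB, with a median of 106 CPM. The lowest value of a member in any library, 12.5 CPM, came from 348 reads. The coefficient of variation between libraries of a group had a median of 4.25% and reached 15.1%. SLC22A10 was at 85.4 ± 5.53 CPM in SLC22A10_OE, 0 CPM in SLC22A15_OE and 0.00938 CPM in Vector. SLC22A15 was at 75.9 ± 2.48 CPM in SLC22A15_OE, 3.84 ± 0.357 CPM in SLC22A10_OE and 6.11 ± 0.571 CPM in Vector (mean ± SD, n = 3). In each group, 1 library held less mitochondrial ribosomal RNA than the others: 0.0151% of reads in SLC22A10_OE library 3, 0.0111% in SLC22A15_OE library 1 and 0.00958% in Vector library 1, against 0.0454% to 0.0843% elsewhere. The epithelial keratins KRT8, KRT18 and KRT19 and the duct factor SOX9 were at 44.0 CPM or more in every library, and the duct keratin KRT7 at 0.563 CPM or less. The mesenchymal filament VIM ran from 3319 to 3506 CPM in SLC22A10_OE and from 2539 to 2709 CPM in SLC22A15_OE, against 2988 to 3174 CPM in Vector, and FN1, a mesenchymal matrix protein, was at 5.20 CPM or less. EPCAM, CDH1 and CFTR were not analysed here. The summed level of the 3 keratins ran from 381 to 424 CPM in SLC22A10_OE and from 206 to 225 CPM in SLC22A15_OE, against 312 to 342 CPM in Vector. The keratins went different ways: KRT19 ran from 197 to 229 CPM in SLC22A10_OE and 66.9 to 76.3 CPM in SLC22A15_OE, against 66.1 to 81.3 CPM in Vector, and KRT18 from 95.5 to 101 CPM in SLC22A10_OE and 95.1 to 95.8 CPM in SLC22A15_OE, against 160 to 163 CPM in Vector. KRT8 ran from 84.8 to 93.5 CPM in SLC22A10_OE and 44.0 to 54.0 CPM in SLC22A15_OE, against 82.7 to 101 CPM in Vector. SOX9 and KRT7 summed to 149 to 169 CPM in SLC22A10_OE and 80.5 to 96.0 CPM in SLC22A15_OE, against 124 to 133 CPM in Vector. CDH5, an endothelial cadherin, ran from 6.24 to 7.65 CPM in SLC22A10_OE and 2.52 to 2.86 CPM in SLC22A15_OE, against 0.901 to 1.45 CPM in Vector. CD74, a leucocyte marker, ran from 0.879 to 1.55 CPM in SLC22A10_OE and 1.98 to 2.65 CPM in SLC22A15_OE, against 3.00 to 3.04 CPM in Vector. The part of these shifts in the results below was not tested.

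The first question was whether the arms moved as blocks. Short-arm members had a median log2 fold change of -0.20 in SLC22A10_OE and -0.21 in SLC22A15_OE against Vector, and long-arm members 0.27 and 0.38. Fold changes are differences of log2(CPM + 1), fitted with limma over all 14554 genes, whose median was 0.00 in SLC22A10_OE and 0.01 in SLC22A15_OE. A gene is called higher or lower where its Benjamini-Hochberg adjusted p over all genes was under 0.05. Of the 29 short-arm members, 4 were called higher and 17 lower in SLC22A10_OE, and 0 higher and 15 lower in SLC22A15_OE. Of the 31 long-arm members, 21 were called higher and 6 lower in SLC22A10_OE, and 21 higher and 2 lower in SLC22A15_OE. Over all genes tested, 34.7% were called higher and 32.5% lower in SLC22A10_OE (67.2% in either direction), and 10.8% higher and 9.58% lower in SLC22A15_OE (20.4%). The members were picked with these contrasts known, so nothing is read from their counts beside those shares, nor from the counts by function below. Same-numbered libraries of SLC22A15_OE and Vector deviated together from their group means, and a limma fit of these groups alone with the numbers as pairs, added after the data were seen, called more genes in SLC22A15_OE, 20.5% of all genes higher and 20.2% lower (40.7% in either direction). There 1 short-arm member was called higher and 25 lower, and 24 long-arm members higher and 4 lower. The members called only with pairs were SNX8, SNX13, HNRNPA2B1, SKAP2, LSM5, BLVRA, DDX56, OGDH, TBRG4, CHCHD2, PTPN12 and ARPC1A (lower), and IQCE, ARPC1B, CPSF4 and COPS6 (higher), with adjusted p of 4.36e-08 (CHCHD2) to 0.0378 (PTPN12). The pairs were picked because these same libraries deviated together, so taking them out tends to lower the spread and add calls. The fit with pairs also left few residual degrees of freedom. Its calls and p-values are therefore given as a description, and nothing is read from them here or below. Calls in SLC22A15_OE below are those without pairs unless pairs are named. Both comparisons use the same 3 vector libraries, so a vector library that is high or low moves both. A vector line that differs as a whole would move both as well. Whether a change shared by the transduced lines lies in them or in the vector line was not tested. Where genes are said to rise or fall below, this is relative to Vector.

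Library by library, the arms stood apart in every transduced library. Relative to the mean of the vector libraries, the median short-arm member was at -0.19, -0.21 and -0.23 log2 units in the SLC22A10_OE libraries and -0.25, -0.20 and -0.19 in the SLC22A15_OE libraries, against -0.01, 0.02 and 0.00 in the vector libraries. For the median long-arm member the values were 0.32, 0.27 and 0.29 in SLC22A10_OE and 0.41, 0.41 and 0.39 in SLC22A15_OE, against -0.04, 0.02 and 0.01 in Vector. The transduced libraries lay below every vector library on 7p and above every vector library on 7q, as the plot of arm medians by library shows. The 651 other genes of chromosome 7 that were tested stood close to the members. The 204 on 7p had a median of -0.17 in SLC22A10_OE and -0.21 in SLC22A15_OE, and the 447 on 7q 0.32 and 0.36. Among these others, 20.6% of 7p genes were called higher and 46.6% lower in SLC22A10_OE, and 1.96% higher and 37.7% lower in SLC22A15_OE. On 7q the shares were 55.7% higher and 16.6% lower in SLC22A10_OE, and 56.8% higher and 4.70% lower in SLC22A15_OE. With pairs the shares in SLC22A15_OE were 4.41% higher and 57.8% lower on 7p, and 68.7% higher and 6.49% lower on 7q.

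Taking 1 value per library, the median of the other 7q genes minus the median of the other 7p genes, the gap between the arms was 0.484 ± 0.00515 log2 units in SLC22A10_OE and 0.555 ± 0.0170 in SLC22A15_OE, against 0.00101 ± 0.0107 in Vector (mean ± SD, n = 3). No library of a transduced line overlapped a vector library, and an exact two-sided permutation test gave p = 0.1 for each line against Vector, the smallest p that 3 libraries against 3 allow. The arms had been picked out from results that included these genes, so the gap is a description as well. Each gene was set against its mean in the vector libraries, which holds their own gap near 0 by construction. The permutation against Vector did not redo this step, so nothing is read from its p. The gap was 0.0703 larger in SLC22A15_OE than in SLC22A10_OE (exact permutation p = 0.1, again the smallest possible), with no overlap between the libraries of the lines. Taken from the fitted difference between the lines gene by gene, the gap was smaller, 0.0397, and 0.0277 to 0.0601 under the 19 alternatives. The libraries with the least mitochondrial ribosomal RNA had gaps of 0.489 in SLC22A10_OE and 0.536 in SLC22A15_OE, against 0.00814 in Vector; the other libraries had 0.479 and 0.485 in SLC22A10_OE and 0.560 and 0.569 in SLC22A15_OE, against -0.0113 and 0.00624 in Vector. Across the 22 other chromosomes with tested genes, the median fold change ran from -0.15 on chromosome 13 to 0.16 on chromosome 19 in SLC22A10_OE, and from -0.05 on chromosome 13 to 0.18 on chromosome 8 in SLC22A15_OE. The 7p and 7q medians lay outside these ranges, but chromosome 7 as a whole lay inside them, at 0.13 in SLC22A10_OE and 0.16 in SLC22A15_OE, and single arms of other chromosomes were not compared. Centring each library on its median gene moved every fold change in SLC22A10_OE by -0.12, to a median of -0.32 for 7p members and 0.15 for 7q members. Over all genes it gave 3875 higher and 6233 lower calls in SLC22A10_OE, beside 5047 higher and 4728 lower without it. Among members it gave 4 higher and 22 lower calls on 7p and 16 higher and 7 lower on 7q, since IQCE, SNX13, LSM5, OGDH, CHCHD2 and EZH2 then passed as lower and RFC2, PTPN12, COPS6, CALU and TNPO3 no longer passed as higher.

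**Figure D1:**
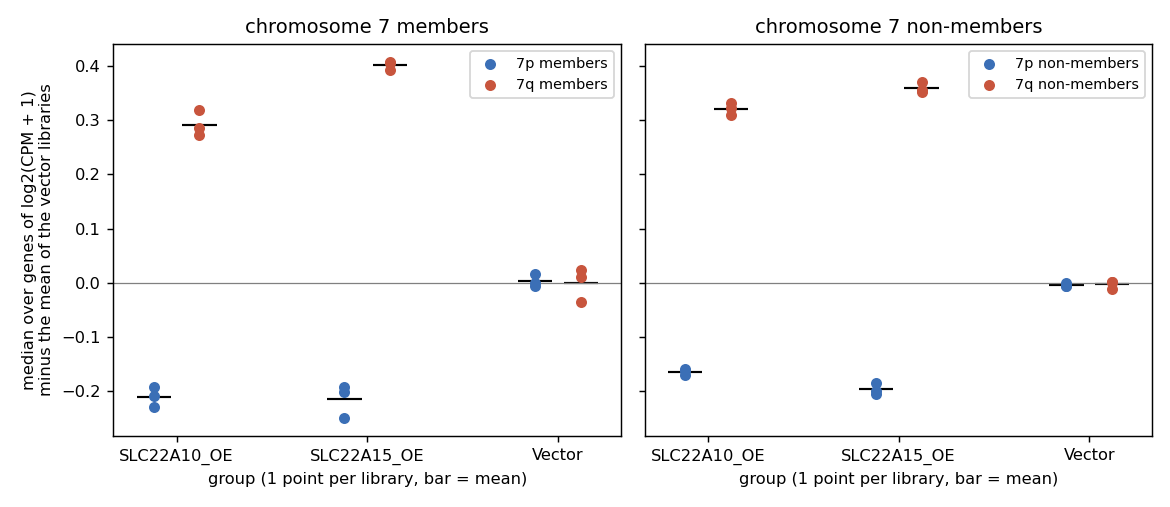
Median over genes of log2(CPM + 1) minus the mean of the vector libraries (vertical axis), for 7p and 7q genes in SLC22A10_OE, SLC22A15_OE and Vector; each point is 1 library and each bar a group mean, with the 60 members on the left and the 651 other genes of chromosome 7 on the right. The 7q medians of the transduced libraries lie between 0.27 and 0.41 and their 7p medians between -0.25 and -0.16. The vector libraries lie near 0, since each gene is set against their mean.

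The short arm had nearly the same median in both lines with a different spread. Fold changes of the 29 short-arm members had an SD of 0.42 in SLC22A10_OE and 0.12 in SLC22A15_OE, running from -1.26 (CYCS) to 0.68 (SUMF2) in SLC22A10_OE and from -0.43 (SCRN1) to 0.10 (IQCE) in SLC22A15_OE. Long-arm members had an SD of 0.65 in SLC22A10_OE and 0.40 in SLC22A15_OE, from -2.35 (CAV1) to 1.24 (MET) and from -1.16 (CAV1) to 1.09 (NAMPT). Over all genes tested the SD was 0.61 in SLC22A10_OE and 0.28 in SLC22A15_OE. Against the direction of their arm's median stood 7 of 29 short-arm members in SLC22A10_OE and 3 in SLC22A15_OE, and 7 of 31 long-arm members in SLC22A10_OE and 6 in SLC22A15_OE. In SLC22A10_OE the called ones were SUMF2, SKAP2, BLVRA and PMS2 on 7p and CAV1, CAV2, PSMC2, BUD31, CUX1 and ARPC1A on 7q. In SLC22A15_OE the called ones were CAV1 and CAV2, both on 7q. In the plot of members in their order along the chromosome, SUMF2 and BLVRA in SLC22A10_OE stand between members with negative fold changes. PMS2 does not, since its neighbours ACTB and EIF2AK1 were at 0.13 and 0.06 in SLC22A10_OE. CAV1 and CAV2 stand side by side, and ARPC1A, BUD31, CUX1 and PSMC2 lie within a stretch where directions were mixed.

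**Figure D2:**
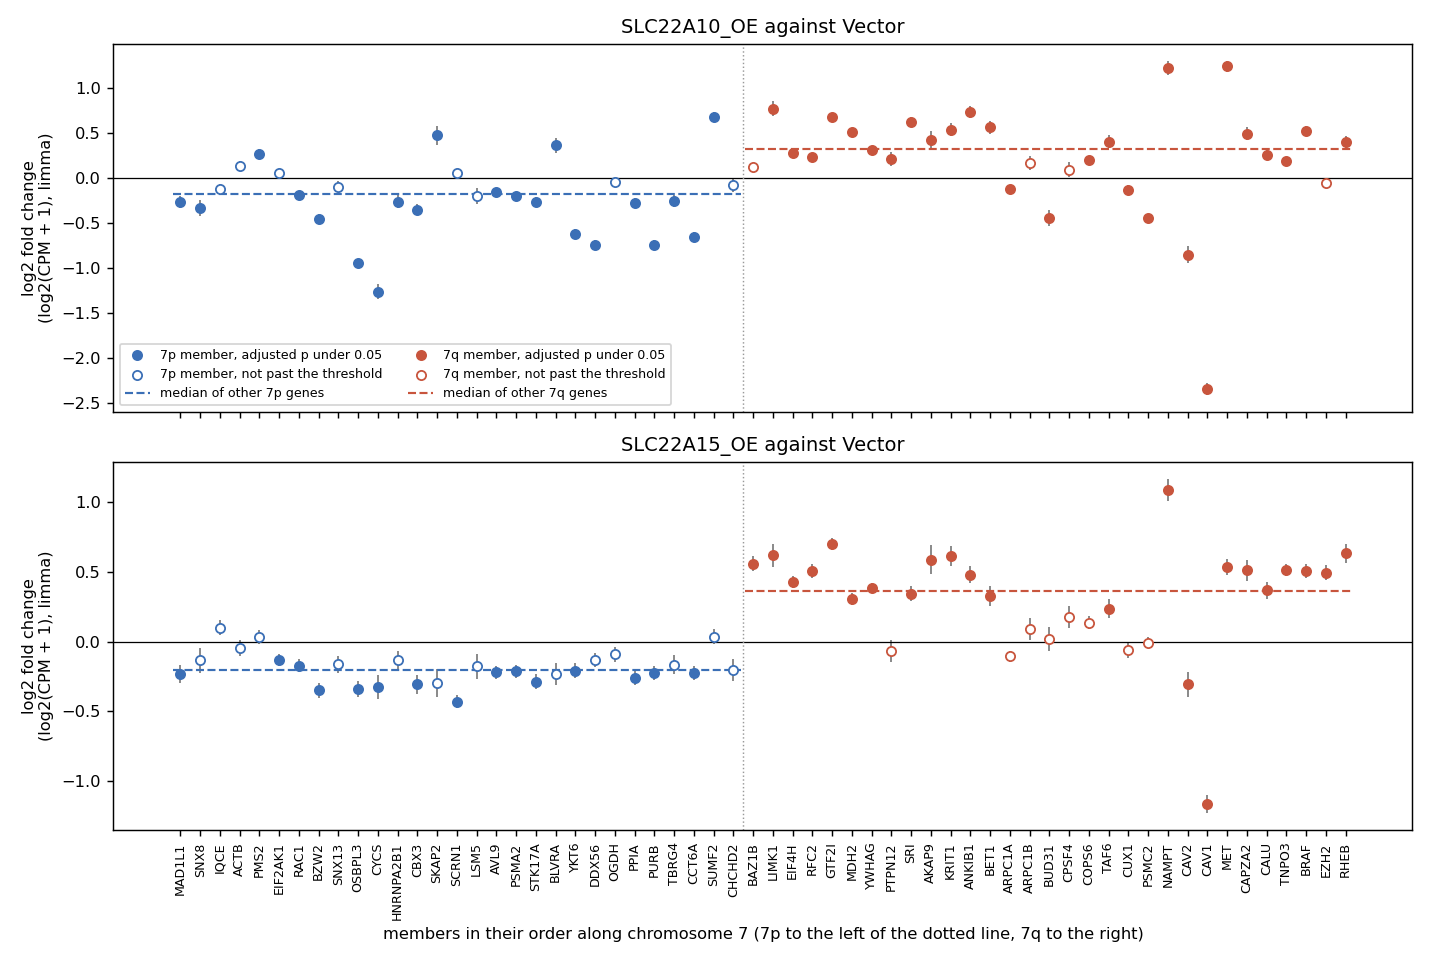
Log2 fold change with its standard error for the 60 members in their order along chromosome 7, in SLC22A10_OE (upper panel) and SLC22A15_OE (lower panel) against Vector; filled points passed the threshold, open points did not, and dashed lines are the medians of the other genes of each arm. Most 7p points lie below 0 and most 7q points above it, with SUMF2 (0.68 in SLC22A10_OE) and CAV1 (-2.35 and -1.16 in SLC22A10_OE and SLC22A15_OE) against their arms; the vertical scales of the panels differ.

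The long arm was not uniform. The 7q members were divided, after their values had been seen, into 3 stretches, so the contrast between stretches among members is a description. The 13 members from BAZ1B to BET1 had a median of 0.51 in SLC22A10_OE and 0.48 in SLC22A15_OE, with 12 called higher and 0 lower in each line. The 8 members from ARPC1A to PSMC2 had medians of -0.02 and 0.05, with 2 higher and 4 lower in SLC22A10_OE and 1 higher and 0 lower in SLC22A15_OE. The 10 members from NAMPT to RHEB had medians of 0.33 and 0.51, with 7 higher and 2 lower in SLC22A10_OE and 8 higher and 2 lower in SLC22A15_OE. Genes of the same stretches that are no members had medians of 0.47 (87 genes), 0.13 (92 genes) and 0.47 (163 genes) in SLC22A15_OE. In SLC22A10_OE their medians were 0.39, 0.06 and 0.49. Of these other genes, 11 of 92 in the middle stretch were called higher in SLC22A15_OE, beside 64 of 87 in the stretch before it and 124 of 163 in the stretch after it. With pairs, 39 of 92, 70 of 87 and 132 of 163 were called higher in SLC22A15_OE, and 4 of the 8 members of the middle stretch. In SLC22A10_OE, 35 of 92 were called higher in the middle stretch, beside 53 of 87 and 112 of 163. The difference between stretches was not tested. The lower and upper quartiles of the middle stretch, 0.03 and 0.21 in SLC22A15_OE, lay below the lower quartiles of the first stretch (0.29) and the third (0.32). In SLC22A10_OE they did not. There the middle stretch ran from -0.19 to 0.45 between its quartiles, across the lower quartiles of the first stretch (0.06) and the third (0.14). The short arm was not divided, but varied as well in SLC22A10_OE. Its bins of 10 Mb with at least 20 other genes had medians of -0.06 (0 to 10 Mb) and -0.01 (20 to 30 Mb). Those at 30 to 40 Mb and 40 to 50 Mb had -0.29 and -0.12. In SLC22A15_OE these bins had -0.15, -0.27, -0.26 and -0.17. Other 7q genes outside the stretches, at 60 to 70 Mb, had medians of 0.15 and 0.32. Differences between bins were not tested.

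**Figure D3:**
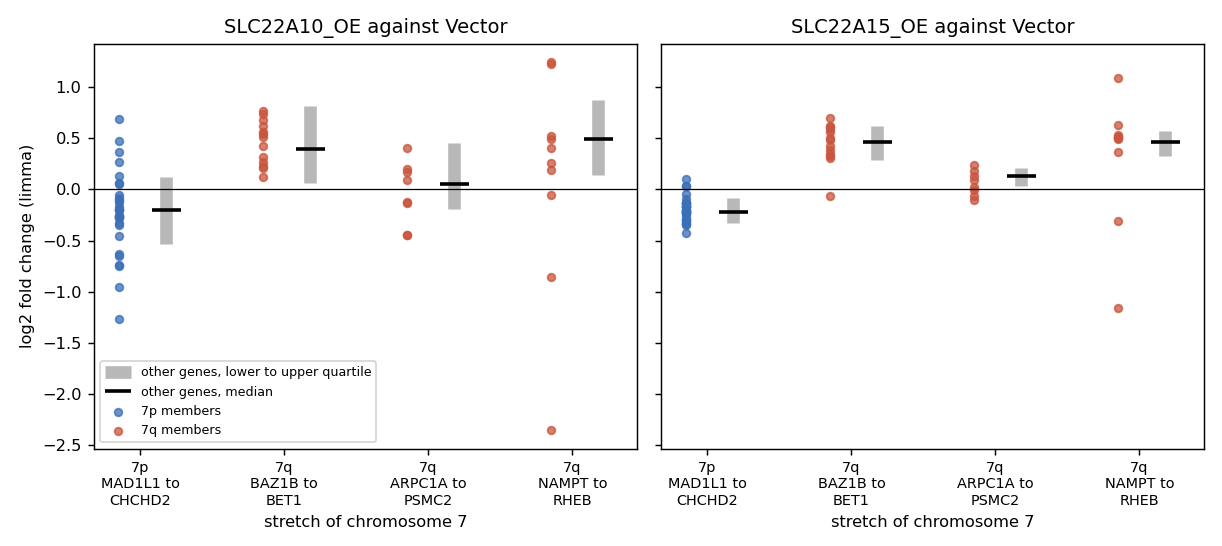
Log2 fold change of members (points) and of the other genes (grey bar from lower to upper quartile, black line at the median) in 4 stretches of chromosome 7, in SLC22A10_OE (left) and SLC22A15_OE (right) against Vector. The middle 7q stretch, ARPC1A to PSMC2, has other-gene medians of 0.06 and 0.13, between stretches with medians of 0.39 to 0.49.

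On 7q the widest fold changes in SLC22A10_OE were those of CAV1, MET, NAMPT and CAV2, and CAV2, CAV1 and MET are neighbours. CAV1 encodes the main coat protein of caveolae and CAV2 its partner, MET the receptor of hepatocyte growth factor, and NAMPT the rate-limiting enzyme of NAD salvage. CAV1 had 15.7, 13.8 and 13.9 CPM in SLC22A10_OE and 33.1, 34.3 and 35.3 CPM in SLC22A15_OE, against 77.8, 79.1 and 76.6 CPM in Vector. Every SLC22A10_OE library was below every SLC22A15_OE library, and all of those were below the vector libraries. The log2 fold changes were -2.35 ± 0.06 in SLC22A10_OE (limma, adjusted p = 1.24e-11) and -1.16 ± 0.06 in SLC22A15_OE (limma, adjusted p = 4.81e-08), each with its standard error. Where 2 fold changes are given for a gene, the first is that in SLC22A10_OE and the second that in SLC22A15_OE, each against Vector. CAV2 had 14.3, 12.6 and 12.5 CPM in SLC22A10_OE and 18.9, 19.2 and 20.7 CPM in SLC22A15_OE, against 22.2, 27.7 and 23.8 CPM in Vector. Its groups stood in the same order without overlap, at -0.85 ± 0.09 in SLC22A10_OE and -0.31 ± 0.09 in SLC22A15_OE. The second value passed the threshold (limma, adjusted p = 0.0282) and missed it when SLC22A15_OE library 1 (adjusted p = 0.0756) or 2 (0.0877), or Vector library 2 (0.124) or 3 (0.0648), was left out.

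MET had 88.9, 81.5 and 80.7 CPM in SLC22A10_OE and 49.0, 52.9 and 50.4 CPM in SLC22A15_OE, against 34.4, 36.3 and 33.8 CPM in Vector, the reverse order of its neighbour CAV1, again without overlap (1.24 ± 0.06 in SLC22A10_OE and 0.53 ± 0.06 in SLC22A15_OE). NAMPT had 203, 194 and 184 CPM in SLC22A10_OE and 162, 181 and 184 CPM in SLC22A15_OE, against 71.6, 90.3 and 85.6 CPM in Vector. Both lines lay far above every vector library (1.23 ± 0.08 and 1.09 ± 0.08), and SLC22A15_OE a little below SLC22A10_OE in all libraries. That difference, -0.14 ± 0.08, missed the threshold (limma, adjusted p = 0.138) and passed without Vector library 1 (0.0364). Of the caveolar proteins encoded elsewhere, the coat proteins CAVIN1 (-1.27 and -0.41 in SLC22A10_OE and SLC22A15_OE) and CAVIN3 (-1.16 and -0.44) fell in both lines. EHD2, an ATPase at the caveolar neck, rose in SLC22A10_OE (0.65 and -0.17) and was called lower in SLC22A15_OE with pairs only, and PACSIN2, which bends membranes, did not pass the threshold (-0.12 and -0.10).

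On 7p, CYCS had the lowest and SUMF2 the highest fold change in SLC22A10_OE. CYCS, the electron carrier cytochrome c, had 123, 133 and 115 CPM in SLC22A10_OE and 214, 253 and 249 CPM in SLC22A15_OE, against 260.2, 329.8 and 309.6 CPM in Vector. SLC22A10_OE was below the other groups in every library and SLC22A15_OE below Vector, at -1.26 ± 0.09 (limma, adjusted p = 5.18e-08) and -0.32 ± 0.09 (limma, adjusted p = 0.0179). The second call was lost without SLC22A15_OE library 1 (limma, adjusted p = 0.0619), Vector library 2 (0.0744) or Vector library 3 (0.0756). RefSeq lists 45 pseudogenes named after CYCS, and the assignment of reads shared with them is not stated in the sources. SUMF2, a paralog of the sulfatase-modifying factor in the endoplasmic reticulum, had 92.1, 98.7 and 95.3 CPM in SLC22A10_OE and 62.8, 59.5 and 59.2 CPM in SLC22A15_OE, against 61.0, 55.8 and 60.4 CPM in Vector. All SLC22A10_OE libraries were above the rest, and SLC22A15_OE overlapped Vector (0.68 ± 0.05, called, and 0.04 ± 0.05, not called).

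**Figure D4:**
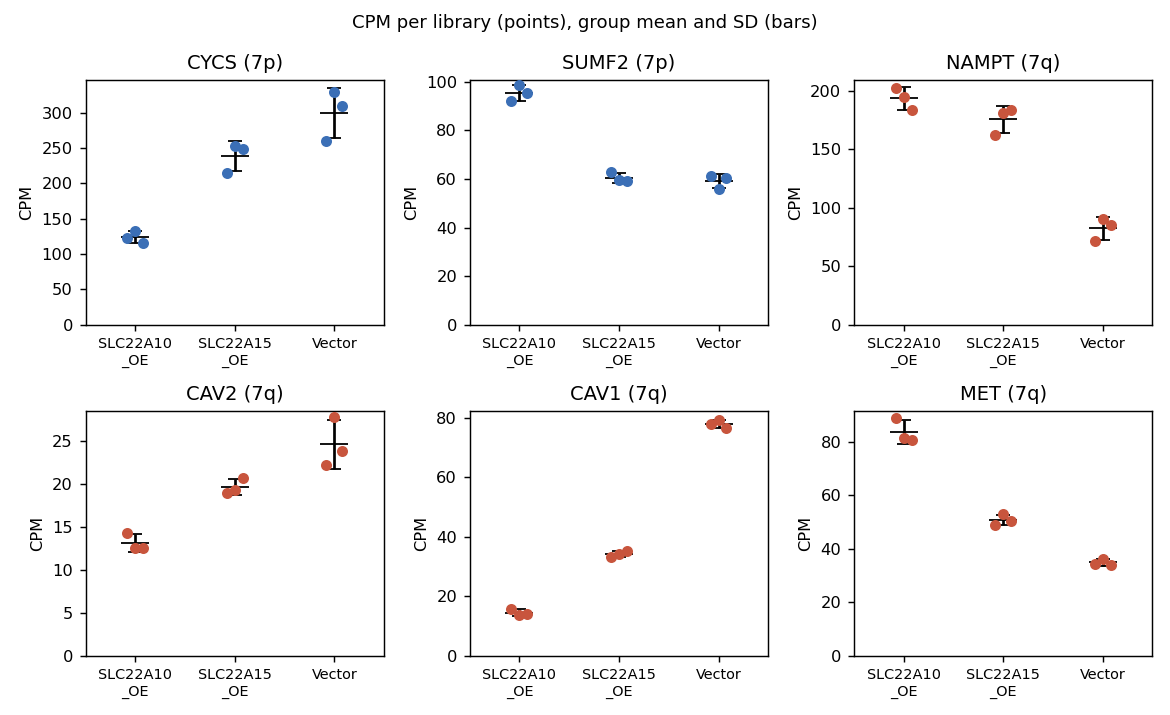
CPM of CYCS, SUMF2, NAMPT, CAV2, CAV1 and MET in each library of SLC22A10_OE, SLC22A15_OE and Vector; points are libraries, horizontal bars group means and vertical bars SDs (n = 3), and each vertical axis starts at 0. CAV1 falls to means of 14.5 CPM in SLC22A10_OE and 34.2 CPM in SLC22A15_OE, against 77.9 CPM in Vector, while MET and NAMPT rise in both lines.

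Pairs of neighbouring members could move apart across a short distance, and the promoters of CAV2, CAV1, MET, NAMPT, CYCS and SUMF2 are shown because these genes moved furthest up or down on their arms in SLC22A10_OE. CCT6A and SUMF2, 296 bases apart, were at -0.65 and 0.68 in SLC22A10_OE, and -0.22 and 0.04 in SLC22A15_OE. CAV2 and CAV1, 16467 bases apart, fell together, and MET beyond them rose. By contrast HNRNPA2B1 and CBX3, 696 bases apart, were at -0.26 and -0.35 in SLC22A10_OE and -0.13 and -0.31 in SLC22A15_OE. LSM5 and AVL9, 205 bases apart, were at -0.20 and -0.16 in SLC22A10_OE and -0.18 and -0.22 in SLC22A15_OE. KRIT1 and ANKIB1, whose annotated ends overlap (a gap of -127 bases), were at 0.54 and 0.73 in SLC22A10_OE and 0.61 and 0.48 in SLC22A15_OE. The library kit keeps strand, but no source states that the counting used it, so reads of overlapping ends are uncertain. Each sequence holds the 250 bases before a gene's start in the promoter table (the first listed, where CAV2 and CAV1 have several), from RefSeq on GRCh38.p14, written 5′ to 3′ on the gene's own strand. That of CYCS lies at chr7:25125261-25125510, minus strand, and that of SUMF2 at chr7:56064036-56064285, plus strand. That of NAMPT lies at chr7:106284984-106285233, minus strand, and that of CAV2 at chr7:116499488-116499737, plus strand. The start listed for NAMPT lies inside its annotated gene (chr7:106248298-106285888), so that sequence overlaps the gene, while the others end at the edge of theirs. That of CAV1 lies at chr7:116524759-116525008, plus strand, and that of MET at chr7:116671946-116672195, plus strand. Capitals mark matches on either strand to the GC box GGGCGG bound by SP factors, the CCAAT box CCAAT, the TATA box TATAAA, the E-box CACGTG, or the NRF1 core GCATGCG; NRF1 is a factor of nuclear genes for mitochondria, and matches of 1 motif may overlap.
CYCS: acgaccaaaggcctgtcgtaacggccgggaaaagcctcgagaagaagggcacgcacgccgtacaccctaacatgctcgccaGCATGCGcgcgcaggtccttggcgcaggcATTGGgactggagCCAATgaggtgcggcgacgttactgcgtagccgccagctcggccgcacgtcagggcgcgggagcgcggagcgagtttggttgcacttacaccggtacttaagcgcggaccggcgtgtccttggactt
SUMF2: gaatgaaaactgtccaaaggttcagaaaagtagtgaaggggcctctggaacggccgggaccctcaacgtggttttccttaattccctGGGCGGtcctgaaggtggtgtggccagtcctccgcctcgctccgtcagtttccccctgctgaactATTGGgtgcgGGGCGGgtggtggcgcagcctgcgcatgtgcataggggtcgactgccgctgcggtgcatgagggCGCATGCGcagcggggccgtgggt
NAMPT: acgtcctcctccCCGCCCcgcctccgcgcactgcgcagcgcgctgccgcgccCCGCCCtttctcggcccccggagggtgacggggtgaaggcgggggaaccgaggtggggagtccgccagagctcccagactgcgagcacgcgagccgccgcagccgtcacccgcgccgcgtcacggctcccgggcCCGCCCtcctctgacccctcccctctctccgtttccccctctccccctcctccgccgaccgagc
CAV2: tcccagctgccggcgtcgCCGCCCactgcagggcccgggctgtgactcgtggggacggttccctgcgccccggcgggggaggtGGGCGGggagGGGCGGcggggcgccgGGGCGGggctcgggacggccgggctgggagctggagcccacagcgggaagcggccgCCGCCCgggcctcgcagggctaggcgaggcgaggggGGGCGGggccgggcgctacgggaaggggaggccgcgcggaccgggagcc
CAV1: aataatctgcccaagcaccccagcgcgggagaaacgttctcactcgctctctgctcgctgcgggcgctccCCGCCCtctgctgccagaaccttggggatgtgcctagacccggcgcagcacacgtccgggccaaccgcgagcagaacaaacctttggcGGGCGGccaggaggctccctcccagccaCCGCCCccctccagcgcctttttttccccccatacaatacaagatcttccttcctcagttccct
MET: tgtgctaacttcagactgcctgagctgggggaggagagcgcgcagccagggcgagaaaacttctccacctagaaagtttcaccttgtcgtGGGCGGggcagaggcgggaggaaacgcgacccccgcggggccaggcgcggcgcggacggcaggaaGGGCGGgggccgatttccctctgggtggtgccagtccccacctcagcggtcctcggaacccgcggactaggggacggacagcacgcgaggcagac

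For the GC box, matches numbered 6 before CAV2, 3 before CAV1, 3 before NAMPT, 2 before MET, 2 before SUMF2 and 0 before CYCS, so it was present before genes that fell and genes that rose. The CCAAT box occurred 2 times before CYCS and 1 before SUMF2, and the NRF1 core 1 before CYCS and 2 (overlapping) before SUMF2, which moved in opposite directions. RefSeq promoters matched 52 of the 60 members by gene, 23 on 7p and 29 on 7q. The GC box was found in 56.5% of the 7p promoters and 69.0% of the 7q promoters, against 66.1% of the promoters of all genes tested and 42.3% of all 27305 promoters in the table. The CCAAT box was found in 47.8% and 34.5%, against 34.8% and 33.0%. The shares were 4.35% and 6.90%, against 5.60% and 11.1%, for the TATA box, 8.70% and 3.45%, against 8.78% and 6.49%, for the E-box, and 13.0% and 3.45%, against 5.64% and 3.57%, for the NRF1 core. Median GC content was 62.8% on 7p and 69.2% on 7q, against 64.8% and 58.0%. A match of letters is not a bound site, and whether a motif goes with the direction of a gene was not tested.

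The other 7q members of signalling, BRAF, RHEB, YWHAG and KRIT1, passed the threshold upward in both lines. The kinase BRAF had 93.9, 89.1 and 88.6 CPM in SLC22A10_OE and 86.5, 91.0 and 89.7 CPM in SLC22A15_OE, against 59.6, 63.8 and 64.3 CPM in Vector, for 0.53 ± 0.05 and 0.50 ± 0.05, with no overlap between either line and Vector. RHEB, the GTPase that switches on mTORC1, had 34.8, 36.5 and 33.4 CPM in SLC22A10_OE and 41.7, 39.9 and 41.3 CPM in SLC22A15_OE, against 24.6, 28.3 and 25.5 CPM in Vector. All its transduced libraries were above the vector libraries, those of SLC22A15_OE highest (0.40 ± 0.07 and 0.63 ± 0.07). YWHAG, an adaptor that binds phosphorylated proteins and the 7q member with the highest level, had 589, 576 and 595 CPM in SLC22A10_OE and 628, 609.6 and 611 CPM in SLC22A15_OE, against 480.3, 470.0 and 467 CPM in Vector. It rose by 0.31 ± 0.04 and 0.38 ± 0.04 without overlap, and KRIT1, which stabilises endothelial junctions, by 0.54 and 0.61. Those on 7p did otherwise. SKAP2, an adaptor of Src-family kinases, had 37.2, 34.8 and 30.4 CPM in SLC22A10_OE and 17.7, 19.9 and 21.3 CPM in SLC22A15_OE, against 20.9, 25.5 and 26.8 CPM in Vector, above Vector in every SLC22A10_OE library and overlapping Vector in SLC22A15_OE. Its fold changes were 0.47 ± 0.10, called, and -0.30 ± 0.10, which missed the threshold (limma, adjusted p = 0.0595). The second passed without Vector library 1 (limma, adjusted p = 0.0065), without SLC22A10_OE library 3 (0.0470) or with centred libraries (0.0443). It also passed with DESeq2 (adjusted p = 0.0233) and without each group's library of least mitochondrial ribosomal RNA (limma, adjusted p = 0.000495). STK17A, a kinase of the death-associated family, fell by 0.26 and 0.29, and EIF2AK1, the haem-regulated kinase that slows translation, was at 0.06 and -0.13, called lower in SLC22A15_OE. The difference between the lines for EIF2AK1, -0.19, passed as well, and did not with centred libraries.

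Of the actin and cell shape genes, RAC1 on 7p fell in both lines and LIMK1 and CAPZA2 on 7q rose in both. ACTB, cytoskeletal actin and the member with the highest level, had 6818, 7068 and 7369 CPM in SLC22A10_OE and 6531, 6191 and 6111 CPM in SLC22A15_OE, against 6964, 6078 and 6410.3 CPM in Vector. Each line overlapped Vector (0.13 ± 0.06 in SLC22A10_OE, limma adjusted p = 0.0540, and -0.04 ± 0.06 in SLC22A15_OE). Without Vector library 1 the SLC22A10_OE value was 0.18 and passed (limma, adjusted p = 0.00677), as it did without SLC22A10_OE library 1 (0.0426). That value also passed with edgeR (adjusted p = 0.0441) and with a pseudocount of 0.25 CPM (limma, adjusted p = 0.0483). Without each group's library of least mitochondrial ribosomal RNA it passed as well (limma, adjusted p = 0.000447). Between the lines, all SLC22A15_OE libraries of ACTB lay below those of SLC22A10_OE, and the difference, -0.17 ± 0.06, passed (limma, adjusted p = 0.0147). The ACTB difference did not pass with centred libraries (-0.08; limma, adjusted p = 0.208) or without SLC22A10_OE library 3 (0.0578). It also missed the threshold without SLC22A15_OE library 2 (limma, adjusted p = 0.0512) or 3 (0.0618). The GTPase RAC1 had 292, 300.4 and 282 CPM in SLC22A10_OE and 282, 299 and 306 CPM in SLC22A15_OE, against 317, 337 and 346 CPM in Vector, below Vector in all 6 transduced libraries (-0.19 ± 0.05 and -0.17 ± 0.05). The RAC1 call in SLC22A15_OE was lost without SLC22A15_OE library 1 (limma, adjusted p = 0.086) or 2 (0.0551), or Vector library 2 (0.0669) or 3 (0.118). LIMK1, a kinase that inactivates cofilin, had 76.5, 82.5 and 90.0 CPM in SLC22A10_OE and 77.0, 73.4 and 72.8 CPM in SLC22A15_OE, against 55.7, 44.4 and 45.3 CPM in Vector, and all transduced libraries were above Vector (0.77 ± 0.08 and 0.62 ± 0.08). LIMK1 did not pass between the lines (-0.15; limma, adjusted p = 0.123) and did without Vector library 1 (0.0333). CAPZA2, which caps actin filaments, rose by 0.49 and 0.51, and the phosphatase PTPN12 was at 0.21 and -0.07, called in SLC22A10_OE. The paralogs ARPC1A and ARPC1B, alternative subunits of the actin-nucleating Arp complex, lie 7996 bases apart in the middle 7q stretch. ARPC1A had 191, 188 and 192 CPM in SLC22A10_OE and 192, 192 and 196 CPM in SLC22A15_OE, against 210.0, 204 and 211 CPM in Vector, slightly below Vector in all 6 libraries (-0.13 ± 0.04, called, and -0.11 ± 0.04, not called). The ARPC1A call in SLC22A10_OE was lost without Vector library 3 (limma, adjusted p = 0.0519), and its SLC22A15_OE value passed with DESeq2 (adjusted p = 0.0306), with centred libraries (limma, 0.0331) and with pairs (limma, 0.00134). ARPC1B had 138, 157 and 166 CPM in SLC22A10_OE and 159, 142 and 136 CPM in SLC22A15_OE, against 149, 129.7 and 132 CPM in Vector, overlapping in both comparisons (0.17 ± 0.08 and 0.09 ± 0.08, neither called), and its SLC22A10_OE value passed without SLC22A10_OE library 1 (0.24; limma, adjusted p = 0.0176) or Vector library 1 (0.23; adjusted p = 0.0144), and without SLC22A15_OE library 1 (0.17; adjusted p = 0.0475).

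In the group of membrane traffic and secretory pathway, 7p genes had negative fold changes and 7q genes positive ones in both lines. OSBPL3, a lipid-binding protein of membrane contact sites, had 25.6, 24.5 and 24.6 CPM in SLC22A10_OE and 38.9, 37.2 and 39.6 CPM in SLC22A15_OE, against 48.2, 49.7 and 49.4 CPM in Vector, with the 3 groups fully separated (-0.95 ± 0.06 and -0.34 ± 0.06). The SNARE YKT6 was at -0.63 and -0.21 and AVL9, whose yeast relative acts in secretion, at -0.16 and -0.22, all called lower. The sorting nexins SNX8 (-0.33 and -0.13) and SNX13 (-0.10 and -0.16) passed the threshold only for SNX8 in SLC22A10_OE. On 7q the SNARE BET1 (0.57 and 0.33), the calcium-binding proteins SRI (0.62 and 0.34) and CALU (0.26 and 0.37) rose in both lines. Thus 4 of 5 traffic genes on 7p were called lower in SLC22A10_OE and 3 of 5 in SLC22A15_OE (5 of 5 with pairs), where 32.5% and 9.58% of all genes tested were (20.2% with pairs). On 7q, 3 of 3 were called higher in each, counting the calcium-binding SRI and CALU, where 34.7% and 10.8% of all genes were.

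Of the chromatin, transcription and DNA maintenance genes, 3 of 4 on 7p were called lower and 1 higher in SLC22A10_OE, and 3 lower in SLC22A15_OE; on 7q, 4 of 7 were called higher and 1 lower in SLC22A10_OE, and 6 higher in SLC22A15_OE. EZH2, the methyltransferase of Polycomb complex PRC2, had 76.1, 78.9 and 72.4 CPM in SLC22A10_OE and 107, 114 and 112 CPM in SLC22A15_OE, against 75.3, 79.3 and 81.8 CPM in Vector. SLC22A10_OE overlapped Vector and SLC22A15_OE lay above both, at -0.05 ± 0.05 (not called) and 0.49 ± 0.05 (called), and the difference between the lines, 0.55 ± 0.05, passed (limma, adjusted p = 1.78e-06). With libraries centred on their medians the SLC22A10_OE value of EZH2 was -0.17 and passed as lower (limma, adjusted p = 0.0122). BAZ1B, a kinase and chromatin remodeller subunit, had 314, 296 and 289 CPM in SLC22A10_OE and 384, 417 and 422 CPM in SLC22A15_OE, against 264, 285 and 281 CPM in Vector, with all SLC22A10_OE libraries just above Vector and all SLC22A15_OE libraries well above both. Its fold changes were 0.12 ± 0.05, which missed the threshold (limma, adjusted p = 0.0608) and passed without SLC22A10_OE library 3 (0.0478) or SLC22A15_OE library 1 (0.0403), and 0.56 ± 0.05. GTF2I, a transcription factor, had 219.6, 222 and 215 CPM in SLC22A10_OE and 221, 224 and 223 CPM in SLC22A15_OE, against 133, 142 and 134 CPM in Vector, at 0.67 ± 0.04 and 0.70 ± 0.04 with both lines above Vector, though RefSeq lists 20 pseudogenes named after it. The clamp loader subunit RFC2 (0.23 and 0.50) and the TFIID subunit TAF6 (0.40 and 0.24) rose in both lines. So did AKAP9 (0.42 and 0.59), counted in this group although it is a centrosome and Golgi scaffold. The homeodomain factor CUX1 was at -0.13 and -0.06, called lower in SLC22A10_OE. On 7p, the mismatch repair gene PMS2 had 76.1, 72.6 and 74.6 CPM in SLC22A10_OE and 62.6, 63.7 and 62.6 CPM in SLC22A15_OE, against 59.5, 64.6 and 61.1 CPM in Vector. It lay above Vector in SLC22A10_OE (0.27 ± 0.05, called) and overlapped it in SLC22A15_OE (0.03 ± 0.05), and RefSeq lists 14 pseudogenes of PMS2. The heterochromatin protein CBX3 (-0.35 and -0.31), the purine-rich element binder PURB (-0.74 and -0.23) and the spindle checkpoint gene MAD1L1 (-0.27 and -0.23) fell in both.

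All 4 genes of RNA processing and translation on 7p had negative fold changes in both lines, of which 3 were called in SLC22A10_OE and 1 in SLC22A15_OE (4 with pairs). DDX56, a nucleolar helicase, had 92.2, 85.7 and 90.2 CPM in SLC22A10_OE and 143, 133 and 135 CPM in SLC22A15_OE, against 158, 148 and 147 CPM in Vector, so that SLC22A10_OE lay far below the other groups and SLC22A15_OE a little below Vector (-0.75 ± 0.05, called, and -0.13 ± 0.05, not called; 0.61 ± 0.05 between the lines, called). BZW2, a regulator of translation initiation, had 84.4, 84.2 and 86.9 CPM in SLC22A10_OE and 94.5, 89.9 and 91.7 CPM in SLC22A15_OE, against 125, 111 and 117 CPM in Vector, below Vector in all 6 libraries (-0.46 ± 0.05 and -0.35 ± 0.05). The splicing regulator HNRNPA2B1 was at -0.26 and -0.13, called in SLC22A10_OE, and LSM5, of the LSm ring that binds RNA ends, at -0.20 and -0.18, not called. On 7q the initiation factor EIF4H rose (0.27 and 0.43), the cleavage factor CPSF4 was at 0.09 and 0.18 and not called, and the splicing protein BUD31 was at -0.44 and 0.02, called lower in SLC22A10_OE.

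Among the other mitochondrial and metabolic genes, BLVRA, which makes bilirubin, had 18.9, 22.3 and 22.6 CPM in SLC22A10_OE and 13.3, 13.8 and 14.2 CPM in SLC22A15_OE, against 16.2, 15.9 and 16.8 CPM in Vector, above Vector in SLC22A10_OE (0.36 ± 0.08, called) and below it in SLC22A15_OE (-0.23 ± 0.08, not called). The BLVRA value in SLC22A15_OE passed without SLC22A10_OE library 1 (limma, adjusted p = 0.0366) or with centred libraries (0.0328). It also passed with DESeq2 (adjusted p = 0.0381). The citric acid cycle enzymes OGDH on 7p (-0.05 and -0.09, not called) and MDH2 on 7q (0.51 and 0.31, called higher) stood on either side of the threshold, and TBRG4, a mitochondrial RNA regulator on 7p, was at -0.26 and -0.16, called in SLC22A10_OE. CHCHD2, an intermembrane space protein on 7p, was at -0.08 and -0.20, not called.

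Folding and turnover genes on 7p, the prolyl isomerase PPIA (-0.27 and -0.26), the proteasome core subunit PSMA2 (-0.20 and -0.21) and the chaperonin subunit CCT6A (-0.65 and -0.22), fell in both lines, with 87 PPIA pseudogenes in RefSeq. On 7q, the proteasome ATPase PSMC2 had 102, 104 and 102 CPM in SLC22A10_OE and 142, 138 and 140.0 CPM in SLC22A15_OE, against 141, 140.1 and 140.4 CPM in Vector. No SLC22A10_OE library reached the other groups, and the SLC22A15_OE and Vector libraries overlapped (-0.45 ± 0.04 and -0.01 ± 0.04; 0.44 ± 0.04 between the lines, called). COPS6, of the COP9 signalosome, was at 0.20 and 0.13, called in SLC22A10_OE. Of the remaining 7p members, SCRN1, a protein of exocytosis, had 122, 115 and 120.4 CPM in SLC22A10_OE and 84.3, 85.3 and 84.9 CPM in SLC22A15_OE, against 114, 118 and 112 CPM in Vector, lowest in SLC22A15_OE with the other groups overlapping (0.05 ± 0.04 and -0.43 ± 0.04, the second called). IQCE, a ciliary protein of Hedgehog signalling, had 68.6, 66.4 and 73.0 CPM in SLC22A10_OE and 83.3, 81.3 and 78.0 CPM in SLC22A15_OE, against 78.8, 74.5 and 72.9 CPM in Vector, and both lines overlapped Vector (-0.12 ± 0.05 and 0.10 ± 0.05, neither called). Without SLC22A10_OE library 3 the IQCE value in that line was -0.16 and passed (limma, adjusted p = 0.0334). The 7q members ANKIB1, a ubiquitin ligase (0.73 and 0.48), and TNPO3, a nuclear import receptor of splicing factors (0.18 and 0.51), rose in both lines.

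Partners of the members in complexes and pathways, encoded on other chromosomes, give a view of the same machinery away from the arms. Of 91 such partners, 15 were called higher and 36 lower in SLC22A10_OE, with a median of -0.12, and 6 higher and 6 lower in SLC22A15_OE, with a median of -0.04. These are 16.5% higher and 39.6% lower in SLC22A10_OE, where 34.7% and 32.5% of all genes were, and 6.59% in each direction in SLC22A15_OE, where 10.8% and 9.58% were. With pairs, 12 were called higher and 28 lower in SLC22A15_OE (13.2% and 30.8%, where 20.5% and 20.2% of all genes were). The 4 members on 7p in these sets had medians of -0.20 and -0.19, and the 14 members on 7q 0.18 and 0.21. The sets were chosen around the members, so nothing is read from their counts. In SLC22A10_OE the proteasome ATPase ring, which unfolds substrates, moved with its 7q member: all 5 partners of PSMC2 were called lower, from -0.53 (PSMC4) to -0.24 (PSMC1), beside -0.45 for PSMC2, and in SLC22A15_OE none of the 6 was called, with or without pairs. In the CCT chaperonin, which folds actin and tubulin, 6 of 7 partners were called lower in SLC22A10_OE, from -0.70 (CCT2) to -0.10 (CCT4), beside -0.65 for CCT6A. The exception was CCT8 (-0.14), and in SLC22A15_OE 1 of 7, CCT4 (-0.13), was called lower, and 6 of 7 with pairs. In SLC22A15_OE, 7 of the 14 members on 7q in these sets were called higher. Beside MDH2 (0.31), CS (0.17) and FH (0.41) were called higher. Beside TAF6 (0.24), TAF2 (0.55) was called higher and TAF9 (-0.21) lower. For the other 5, EZH2, RFC2, RHEB, CAPZA2 and BRAF, no partner was called without pairs. With pairs, partners were called in each of these 5 sets: RBBP7, RFC1 and both actin capping partners lower, RFC3, RFC5 and MTOR higher, and 3 of the RAF and MEK kinases (2 higher and 1 lower). EZH2 was at 0.49 beside -0.07 (RBBP7) to 0.03 (EED), RFC2 at 0.50 beside -0.11 (RFC1) to 0.17 (RFC5), and RHEB at 0.63 beside -0.08 (TSC1) to 0.08 (MTOR). CAPZA2 at 0.51 stood beside -0.15 (CAPZA1) and -0.07 (CAPZB), and BRAF at 0.50 beside -0.08 (MAP2K1) to 0.16 (ARAF). Around COPS6, LSM5, TAF6 and CPSF4, partners ran from -0.12 (COPS3) to 0.08 (COPS7A), -0.05 (LSM3) to 0.25 (LSM1), -0.21 (TAF9) to 0.55 (TAF2) and -0.16 (FIP1L1) to 0.37 (CPSF1) in SLC22A15_OE. LSM1, TAF2 and CPSF1, the highest partners of their sets off chromosome 7 there, are encoded on chromosome 8, whose median was 0.18, as is COPS5, which was at -0.06 and not called. On 7q but no members, LSM8, of the same ring as LSM5, was at 0.47 and 0.36 and the lipoamide dehydrogenase DLD, of the enzyme complex of OGDH, at 0.68 and 0.57, both called higher. Among citric acid cycle partners elsewhere, IDH3A was at -0.72 and -0.02 and FH at 0.35 and 0.41, the lowest and highest in SLC22A10_OE. Among partners of ARPC1A and ARPC1B, ARPC5L was at -0.42 and 0.05 and ARPC4 at 0.41 and 0.19, and among those of PSMA2, PSMA5 was at -0.34 and -0.07 and PSMA6 at 0.22 and 0.19. Whether a partner differs from its member by more than the spread was not tested.

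**Figure D5:**
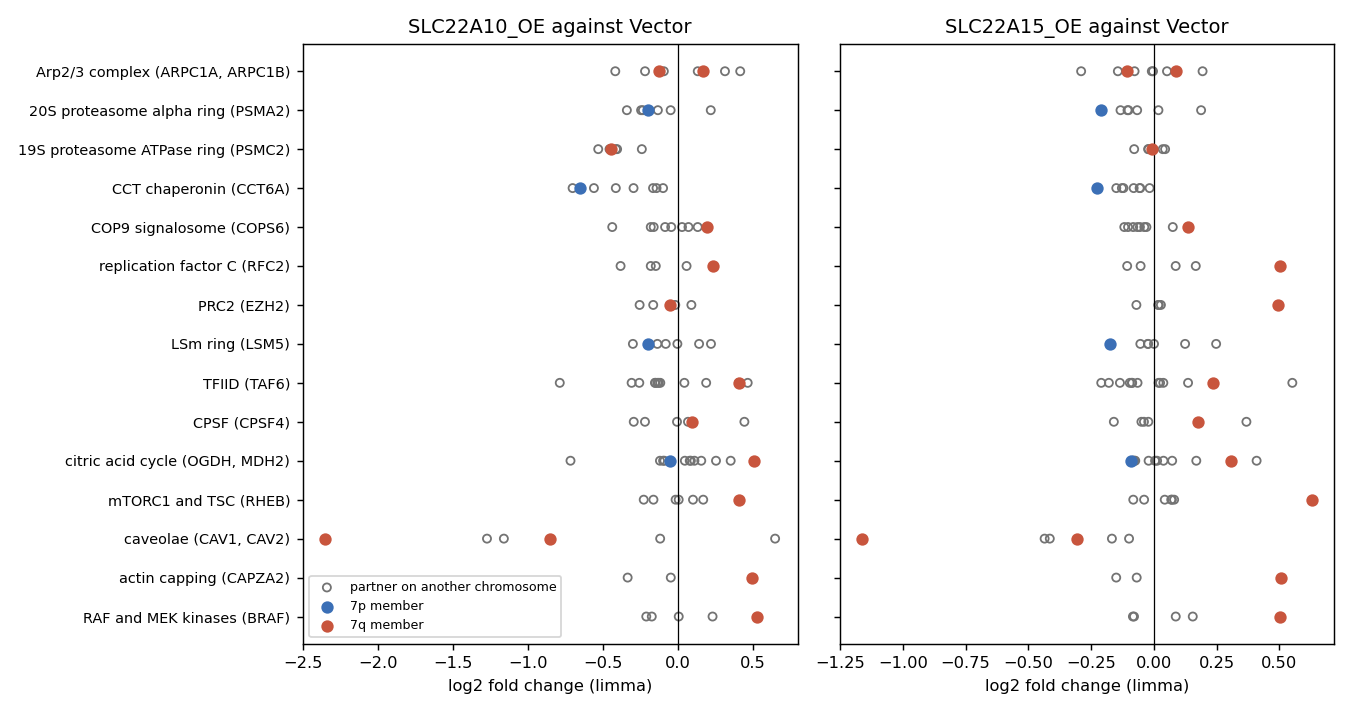
Log2 fold change against Vector in SLC22A10_OE (left) and SLC22A15_OE (right) for members (filled, 7p blue, 7q red) and for their partners on other chromosomes (open circles), 1 row per complex or pathway; the horizontal scales of the panels differ. In SLC22A10_OE the PSMC and CCT partners lie below 0 with PSMC2 and CCT6A. In SLC22A15_OE EZH2, RFC2, RHEB, CAPZA2 and BRAF lie near 0.5 or above, to the right of their partners. MDH2 and TAF6 lie above 0 there too, with partners on both sides of them.

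Set against each other, the lines differed in single genes of both arms. Between SLC22A15_OE and SLC22A10_OE, 7p members had a median of 0.02 with 7 called higher and 7 lower, and 7q members a median of 0.07 with 10 higher and 7 lower, where 30.8% of all genes tested were called higher and 32.1% lower (62.9% in either direction). With libraries centred, the calls were 11 higher and 5 lower on 7p and 16 higher and 4 lower on 7q, and 5798 higher and 3713 lower over all genes, beside 4484 higher and 4674 lower without it. The other 7p and 7q genes had medians of -0.01 and 0.03. CAV1 (1.19), CYCS (0.94), DDX56 (0.61), OSBPL3 (0.61), EZH2 (0.55) and BAZ1B (0.44) were higher in SLC22A15_OE, and SKAP2 (-0.77), MET (-0.71), SUMF2 (-0.65), BLVRA (-0.59) and SCRN1 (-0.48) were lower, all past the threshold. Of the 29 members on 7p, 13 were called lower in both comparisons with Vector and 0 higher in both. Of the 31 members on 7q, 19 were called higher in both and 2, CAV1 and CAV2, lower in both. These counts rest on shared vector libraries, and the share of all genes called alike in both is not given here. With groups compared by their libraries alone, 17 of 29 members on 7p lay below all vector libraries in SLC22A10_OE and 17 in SLC22A15_OE, where 33.8% and 16.6% of all genes tested did so. On 7q, 21 and 22 of 31 members lay above all vector libraries, where 35.4% and 18.1% of all genes did so. Between the lines, 9 members on 7p and 11 on 7q lay above all SLC22A10_OE libraries in SLC22A15_OE and 7 and 8 below them, where 33.3% and 34.2% of all genes did so. As the members were chosen with these results known, nothing is read from these counts. In the authors' deposited tables the median log2 fold change was -0.21 for 7p and 0.27 for 7q members in SLC22A10_OE, and -0.21 and 0.38 in SLC22A15_OE, with no member more than 0.0728 from the limma value.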

How the data were processed

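The authors deposited CPM (reads per 1000000 of a library size) for 16750 genes in 9 libraries. Per comparison with vector they also deposited tables with log2 fold changes, p-values and FDR, per the file headers. Per the submitters' processing notes, edgeR was used and the builds hg38 and mm9 were listed without a role; no aligner, counter, use of strand or annotation is given in the sources used here. Per the labels, libraries were strand-specific after depletion of ribosomal RNA. CPM are not corrected for gene length, so levels are compared within a gene.

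Columns give the group and a number from 1 to 3, which name libraries here and are not tied to the endings of the titles. In deviations from group means, same-numbered libraries of SLC22A15_OE and Vector correlated at 0.19, 0.31 and 0.57, all over 0.1, and were taken as pairs in an added fit of those groups (a hint from the data, since the labels state no pairing); library 1 held the least mitochondrial ribosomal RNA in both. Pairs with SLC22A10_OE correlated at -0.41 to 0.14 and were not taken as pairs. Whole reads were recovered from the deposited CPM (100% of values within 0.1 read). At 28.4 to 42.9 M reads, 1 CPM held 27.8 to 43.4 reads. Positions, from RefSeq on GRCh38.p14 by gene ID, matched 16491 genes, and arms were divided at 60 Mb. Differences in log2(CPM + 1) were tested in R 4.3.3 with limma 3.58.1, using a mean-variance trend, all 9 libraries, 6 residual degrees of freedom and Benjamini-Hochberg adjustment over 14554 genes with at least 1 CPM in at least 3 libraries. Alternatives were edgeR (4.0.16) and DESeq2 (1.42.0) on the recovered reads, another pseudocount, other filters, centring and leaving out libraries. The procedure was tested on simulated data, with 50 genes changed at each size. It recovered 56% of 1.2-fold, 84% of 1.5-fold, 100% of 2-fold and 96% of 4-fold changes, and called 9 unchanged genes. Far more genes, 9775, were called in SLC22A10_OE against Vector than were changed in the simulation. These rates may therefore not hold for the data described here.

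The members, gene lists, stretches and named genes were chosen with earlier results of these data known. Values in every library are given for the 3 members of each arm with the largest and the 3 with the smallest fold change in each comparison with vector, the member of each arm with the highest mean CPM, the neighbouring paralogs ARPC1A, ARPC1B, CAV1 and CAV2, and RAC1, PMS2, MET, BRAF, EZH2 and BAZ1B. Markers of acinar cells, and the other markers without a value, were not analysed here.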

Additional observations from a re-analysis of the deposited data

How the results depend on the processing

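No called fold change of a named member turned its direction under the alternatives run. Of the fold changes of named members under alternatives, 1368 kept their side of the threshold, 46 (of 17 results) passed it only there and 16 (of 5 results) missed it only there; the causes were not tested. The gap between the median of the other 7q and 7p genes in SLC22A10_OE (0.494 in the fit) was 0.535 with a pseudocount of 0.25 CPM, 0.555 with a minimum of 5 CPM, 0.542 with edgeR and 0.542 with DESeq2, 0.536 for genes of at least 20 CPM and 0.472 without the library of each group with the least mitochondrial ribosomal RNA. Without those libraries the 7p median was -0.23, the gap between members 0.503, and the genes called in SLC22A15_OE rose to 4472 from 2966. There ARPC1B, BAZ1B and IQCE also passed in SLC22A10_OE (limma, adjusted p = 0.00209, 0.00969 and 0.0207), and DDX56 in SLC22A15_OE (0.0218). Between the lines BZW2, LIMK1 and NAMPT passed there (limma, adjusted p = 0.0375, 0.0411 and 0.0116). In SLC22A15_OE the gap (0.566) was 0.616, 0.619, 0.636, 0.637 and 0.663 under the first 5 of these settings. Centring libraries on their medians gave -0.32 for 7p and 0.15 for 7q members in SLC22A10_OE, and between the lines 0.12 for 7p and 0.17 for 7q members with 11 7p members higher, 16 7q members higher and 4 7q members lower; the gap between the other genes of the arms was 0.057 there for genes of at least 20 CPM. Leaving out 1 library at a time gave, in SLC22A10_OE, -0.23 to -0.18 for 7p members, 0.24 to 0.31 for 7q members, 0.463 to 0.525 for the gap between members and 0.456 to 0.512 for the other genes; in SLC22A15_OE, 0.547 to 0.573 for the gap between the other genes and 1 to 2 7q members lower (the CAV2 call); and between the lines, -0.0020 (without SLC22A10_OE library 3, against 0.02 with it) for 7p members, 0.036 to 0.071 for 7q members and 0.033 to 0.060 for the gap between the other genes. With SLC22A15_OE and Vector fitted alone and same-numbered libraries as a replicate block (an alternative chosen after seeing the data), 5922 genes were called in SLC22A15_OE, 1 7p member higher and 25 lower, and 4 7q members lower. With the numbers as a replicate block over all 9 libraries, 9688, 2781 and 9111 genes were called (9775, 2966 and 9158 without it) and 7p members lower in SLC22A15_OE numbered 14. Each member held at least 348 reads in every library, and the effect of depth on the calls was not tested.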
